A study of Mus musculus with 2 samples.

Results

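The cells described here are mesenchymal cells of the mouse colon with high Nrg1, chosen by a gate on their UMIs (unique molecular identifiers, which count captured transcripts). A barcode was kept with at least 1000 UMIs, at least 500 genes and at most 10% of its UMIs from mitochondrially encoded genes. It was then gated in if it held no Ptprc UMI, at least 3 Nrg1 UMIs, more Nrg1 than Wif1 plus Bmp3 UMIs, and at least 1 UMI of Foxl1, Sox6, Bmp7 or Agt. The gate passed 668 of 12702 kept barcodes in the library named ff and 258 of 15066 in the library named GF, 926 of 27768 in all. These are called Nrg1-gated barcodes below, because a part of them lacked the Foxl1-high pattern of their working name.

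Sorted stromal cells of the large intestine, positive for gp38 (podoplanin, which fibroblasts carry on their surface) and negative for CD45, EpCAM and CD31, were profiled by 10x Genomics droplet sequencing of transcript 3' ends. The ff library came from C57BL/6 mice and the GF library from Balb/c mice. The design text speaks of adult mice over 8 weeks old and of germ-free ones. The labels leave ff unexplained, give the germ-free status of a library only through the name GF, state no age for GF by itself, and do not say how many animals were pooled. With 1 library per group, strain, germ-free label and library cannot be told apart, no test between libraries was possible, and every interval below is a 95% interval that covers counting error alone.

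Neuregulin 1, the product of Nrg1, is a ligand of the EGF family that binds ERBB3 and ERBB4 and signals through their pairing with ERBB2, and in the intestine it is known as a stromal growth factor for the epithelium. Foxl1 is a forkhead transcription factor of subepithelial cells (telocytes), which lie against the crypt epithelium, carry PDGFRA and secrete BMP and non-canonical WNT ligands. GLP-2, a hormone of enteroendocrine cells that promotes growth of the mucosa, acts through a receptor (Glp2r) found on stromal and neural cells rather than on most epithelial cells.

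The Nrg1-gated barcodes made up 5.26% of the kept ff barcodes (4.88% to 5.66%) and 1.71% of the kept GF barcodes (1.51% to 1.93%, exact Clopper-Pearson intervals). The gate counts raw UMIs, and the libraries differed in depth, with a median of 8977.5 UMIs per kept barcode in ff and 6467 in GF. The gate was also applied to barcodes thinned to 2000 UMIs, asking then for at least 1 Nrg1 UMI instead of 3. Kept barcodes with fewer than 2000 UMIs were left out of this setting. The share was then 3.56% in ff and 1.63% in GF, under a different Nrg1 condition from the shares above. Gated barcodes were deeper than the other kept barcodes, with medians of 11624.5 against 8856.5 UMIs in ff and 7969 against 6443 in GF. They summed to 8422753 UMIs in ff and 2247394 in GF, so GF values carry wider counting errors. The libraries shared 55 barcode sequences, of which 4 were gated in ff, 1 in GF and 0 in both. Scrublet, a doublet caller, marked 55 gated barcodes in ff (8.23%) and 13 in GF (5.04%), against 4.20% and 5.10% of all kept barcodes, and marked barcodes stayed in unless stated.

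Each step of the gate removed few barcodes once Nrg1 had been counted. In ff, 751 kept barcodes without Ptprc had at least 3 Nrg1 UMIs, 698 of them had more Nrg1 than Wif1 plus Bmp3, and 668 passed the last condition. The same steps left 302, 273 and 258 in GF. Gated ff barcodes held a median of 6 Nrg1 UMIs, with a quartile range of 4 to 10 and a highest value of 63. In GF the median was 5, the quartiles 3 and 9 and the highest value 65. The 144 ff barcodes at the edge of the gate, with 3 Nrg1 UMIs, had 43.8 CPM of Ptprr (UMIs per 1000000 summed UMIs) and 44.3 of Glp2r, and the 237 just outside, with 2 Nrg1 UMIs, had 29.2 and 32.2. In GF the 68 barcodes just inside had 43.4 and 52.0 CPM of these genes and the 103 just outside 20.9 and 35.7. Plau stood at 111 CPM just inside and 89.4 just outside in ff, and at 640.1 and 414 in GF. Levels were higher just inside for all 3 genes in both libraries, by more than 2-fold for Ptprr in GF and by less in the other cases.

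The last condition was met mostly through Bmp7, a BMP ligand, and Agt, angiotensinogen. In ff, 83.5% of the gated barcodes held an Agt UMI, 82.8% a Bmp7 UMI, 42.4% a Sox6 UMI and 32.6% a Foxl1 UMI. The GF shares were 61.6% for Agt, 83.3% for Bmp7, 41.5% for Sox6 and 26.0% for Foxl1. A Foxl1 or Sox6 UMI was present in 378 of 668 gated ff barcodes and 132 of 258 gated GF barcodes. These values come from the gate's own genes and are a description. The nearest population was taken with the same filters but with at least 3 UMIs of Wif1 plus Bmp3, above Nrg1. It held 1016 ff and 583 GF barcodes. The other kept barcodes, 12034 in ff and 14808 in GF, are all those outside the Nrg1 gate, so they include this population. In those Wif1/Bmp3-gated barcodes Agt was seen in 19.0% (ff) and 7.55% (GF) and Sox6 in 92.8% and 85.2%. Summed Foxl1 was 43.2 CPM in the Nrg1-gated, 46.3 in the Wif1/Bmp3-gated and 11.7 in the other kept ff barcodes, and 40.5, 79.1 and 13.4 CPM in GF.

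Levels were summed over the barcodes of a group as CPM, and a gene was measured in a comparison if the mean of the CPM of its groups was at least 20 in each library, the 8 genes of the gate left out. Ratios are log2 of CPM + 1. A gene was called if it was at least 2-fold higher, or at least 2-fold lower, in both libraries. Of 5859 measured genes, 154 (2.63%) were higher in the Nrg1-gated than in the other kept barcodes and 170 (2.90%) were lower. The median log2 ratio over all measured genes was 0.04 in ff and 0.08 in GF. Since the gate was set on the same cells, genes that follow Nrg1 in these cells had to differ, and the values below describe the gated barcodes without testing them.

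**Figure D1:**
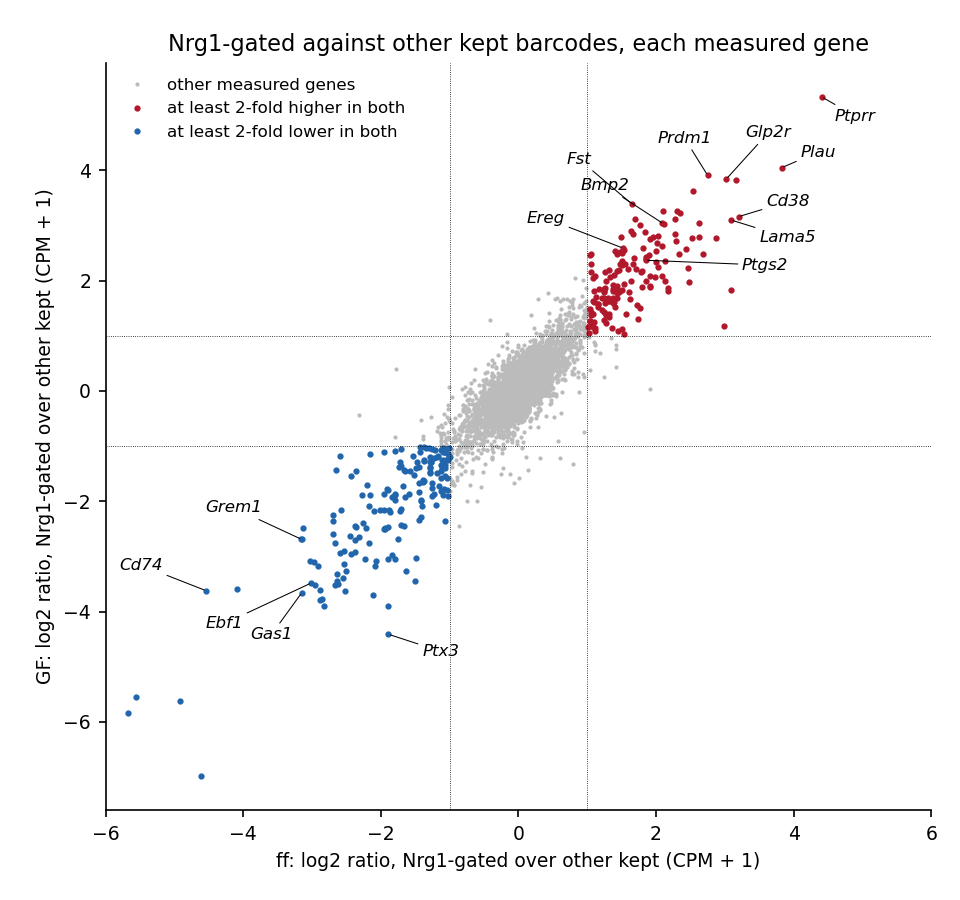
Each point is 1 of the 5859 measured genes, with its log2 ratio of CPM + 1 in the Nrg1-gated over the other kept barcodes in ff on the x axis and in GF on the y axis; dotted lines mark 2-fold. The 154 red genes were at least 2-fold higher and the 170 blue genes at least 2-fold lower in both libraries, with Ptprr at the upper right at 4.41 and 5.33, and the 4 unlabelled points below -5 on the y axis are the immunoglobulin genes Iglc1, Igkc and Igha and the joining chain gene Jchain.

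Beside Nrg1 and Foxl1, which the gate used, the markers given for these cells are Ptprr, Plau and Glp2r. All 3 were called higher in the Nrg1-gated than in the other kept barcodes, and higher than in the Wif1/Bmp3-gated barcodes. Ptprr encodes a receptor-type tyrosine phosphatase that acts on MAP kinases. It stood at 71.6 CPM in the gated ff barcodes, 1.77 in the Wif1/Bmp3-gated and 2.42 in the other kept ff barcodes. In GF the levels were 106, 4.44 and 1.66 CPM. The log2 ratio over the other kept barcodes was 4.41 in ff and 5.33 in GF, and without the pseudocount, which pulls ratios of low genes toward 0, its interval was 4.68 to 5.10 in ff and 5.71 to 6.30 in GF. Ptprr had the largest mean ratio among the genes ranked, in both the comparison with the other kept and that with the Wif1/Bmp3-gated barcodes.

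Plau, urokinase-type plasminogen activator, stood at 222 CPM in the gated ff barcodes against 19.0 in the Wif1/Bmp3-gated and 14.6 in the other kept barcodes. In GF it stood at 1161, 164 and 69.1 CPM. Its log2 ratio over the other kept barcodes was 3.83 in ff and 4.05 in GF (intervals without pseudocount 3.83 to 4.02 and 4.01 to 4.14). All 3 groups had a higher Plau level in GF than in ff. Glp2r stood at 58.9 CPM in the gated ff barcodes, 23.1 in the Wif1/Bmp3-gated and 6.39 in the other kept barcodes, and at 109, 53.0 and 6.63 CPM in GF. The log2 ratio over the other kept barcodes was 3.02 and 3.84 (3.04 to 3.37 and 3.82 to 4.25 without pseudocount). Against the Wif1/Bmp3-gated barcodes it was 1.31 and 1.02, just past 2-fold, with intervals of 1.13 to 1.58 in ff and 0.78 to 1.29 in GF. Glp2r was thus graded over the 3 groups. The other kept barcodes include the Wif1/Bmp3-gated ones, which held 248 of their 702 Glp2r UMIs in ff and 275 of 667 in GF. Ptprr in the Wif1/Bmp3-gated barcodes was below its level in the other kept barcodes in ff and above it in GF, and low in both beside the Nrg1-gated barcodes.

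At equal depth, the share of barcodes with a UMI of each marker was again highest in the Nrg1-gated barcodes. After thinning to 2000 UMIs, 13.7% of the gated ff barcodes held a Ptprr UMI (11.1% to 16.5%), against 0.296% of the Wif1/Bmp3-gated and 0.5002% of the other kept barcodes. In GF the shares were 16.7% (12.3% to 21.8%), 1.37% (0.594% to 2.69%) and 0.338% (0.2497% to 0.449%). For Plau the gated share was 28.8% in ff and 70.5% in GF, against 3.45% and 25.04% of the Wif1/Bmp3-gated and 2.31% and 8.81% of the other kept barcodes. Glp2r was seen in 12.01% and 18.6% of the gated barcodes, 4.33% and 8.75% of the Wif1/Bmp3-gated and 1.21% and 0.987% of the other kept barcodes. Lymphocyte barcodes, which should lack these genes, gave the level of free RNA. Their median depths were 4200 UMIs (68 ff barcodes) and 2679.5 (858 GF barcodes). After thinning, Ptprr and Glp2r were each seen in 0 of 68 ff and 0 of 754 GF lymphocyte barcodes. The exact intervals reached up to 5.28% in ff and 0.488% in GF. Plau was seen in 0 of ff and 0.265% of GF. At full depth, Plau was seen in 61.7% (ff) and 89.1% (GF) of the gated barcodes, 11.8% and 48.9% of the Wif1/Bmp3-gated and 7.85% and 18.1% of the other kept barcodes. Glp2r was seen in 39.4% and 51.2%, 18.4% and 31.4%, and 4.15% and 3.11% of these groups.

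**Figure D2:**
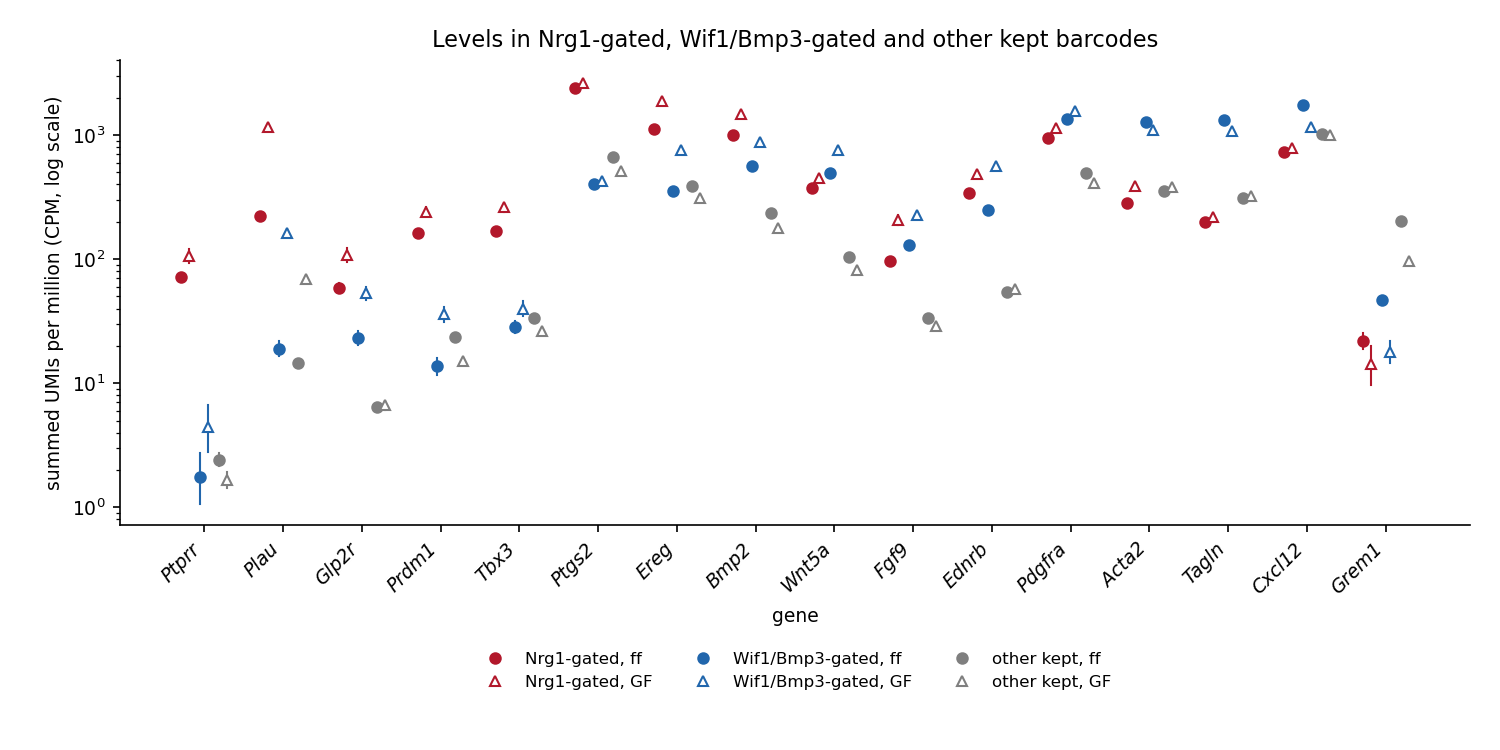
Summed level of 16 genes (CPM, log axis) in the Nrg1-gated (red), Wif1/Bmp3-gated (blue) and other kept barcodes (grey), ff as filled circles and GF as open triangles, with 95% Poisson counting intervals as bars where they exceed the symbols; levels are to be compared within a gene. Ptprr, Plau, Prdm1, Tbx3 and Ptgs2 are higher in red than in both other groups. Wnt5a, Fgf9, Ednrb and Pdgfra lie near each other in red and blue, and Acta2 and Tagln are higher in blue. The grey group includes the blue barcodes.

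Other genes with the largest ratios over the other kept barcodes encode signalling receptors, regulators and matrix. Prdm1, a transcriptional repressor, stood at 163 CPM in ff and 242 in GF against 23.5 and 15.1 (log2 2.75 and 3.91), and Tbx3, a T-box repressor, at 169 and 262 against 33.5 and 26.4 (2.30 and 3.26). Both were also higher than in the Wif1/Bmp3-gated barcodes, at log2 ratios of 3.49 and 2.72 for Prdm1 and 2.54 and 2.68 for Tbx3. Lama5, the laminin alpha-5 chain of epithelial basement membranes, stood at 63.0 and 41.4 CPM against 6.50 and 3.95 (3.094 and 3.099). Ednrb, endothelin receptor B, stood at 344 and 483 CPM against 54.6 and 57.5 (2.63 and 3.05), but at 248 and 568 CPM in the Wif1/Bmp3-gated barcodes, so it separated the Nrg1-gated barcodes from the bulk of the cells and not from their nearest population. Cd38, an enzyme that consumes NAD, was higher at 3.20 and 3.16. Mt3, a metallothionein, was higher at 3.17 and 3.82. The phosphatase Ptpre stood at 2.54 and 3.63, Ccdc3 at 2.35 and 3.23 and the mechanosensitive channel Piezo2 at 2.63 and 2.80. Pla2g7, which hydrolyses platelet-activating factor, stood at 2.27 and 3.12, and Nfatc2, a calcineurin-regulated transcription factor, at 2.68 and 2.49. Ptgs2os, a transcript antisense to Ptgs2, was higher at 2.10 and 3.26. The strand used in counting is not stated, and without it reads of Ptgs2os cannot be told apart from those of Ptgs2. Against the Wif1/Bmp3-gated barcodes, Cd38 (1.70 and 0.27), Ptpre (0.95 and 1.14) and Ccdc3 (0.55 and 1.29) were not called. Cd38 missed 2-fold in GF, with an interval of -0.03 to 0.59, and Ptpre and Ccdc3 missed it in ff.

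The 300-base promoter windows of RefSeq (GRCm38.p6) held starts for 2 of the 5 markers, Ptprr with 4 starts and Glp2r with 1. The 250 bases upstream of a start are shown for both, since these genes were high together with Nrg1 and the gate used a forkhead factor, Foxl1. Of 5 other genes high with Nrg1 that were searched, Prdm1 is shown because it alone held a motif. They are written 5' to 3' on the gene's strand, with capitals for letters that match a forkhead motif (TGTTTAC or its reverse GTAAACA) or an AP-1 motif (TGANTCA).
Ptprr, chr10:116177101-116177350, + strand: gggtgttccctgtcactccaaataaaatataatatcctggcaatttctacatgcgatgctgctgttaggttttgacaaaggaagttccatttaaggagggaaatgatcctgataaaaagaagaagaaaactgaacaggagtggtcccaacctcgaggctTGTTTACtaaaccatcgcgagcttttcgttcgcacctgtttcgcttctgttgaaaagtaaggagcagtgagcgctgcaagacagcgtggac
Glp2r, chr11:67771154-67771403, - strand: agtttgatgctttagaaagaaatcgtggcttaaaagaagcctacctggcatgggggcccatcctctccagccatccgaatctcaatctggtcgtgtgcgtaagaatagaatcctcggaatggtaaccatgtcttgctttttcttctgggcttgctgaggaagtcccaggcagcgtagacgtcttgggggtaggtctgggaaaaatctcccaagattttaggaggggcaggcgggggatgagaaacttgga
Prdm1, chr10:44458749-44458998, - strand: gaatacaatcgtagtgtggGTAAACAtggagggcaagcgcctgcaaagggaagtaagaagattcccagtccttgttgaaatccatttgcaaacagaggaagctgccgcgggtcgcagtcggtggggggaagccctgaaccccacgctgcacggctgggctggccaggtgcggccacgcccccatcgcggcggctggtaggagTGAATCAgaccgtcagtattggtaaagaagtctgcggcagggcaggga
The forkhead motif was present in the Ptprr window shown and in none of the windows of its other 3 starts, in the Prdm1 window, and not in the Glp2r window. Over 32851 windows of the same length, 3.17% held it on either strand, 6.75% held the AP-1 motif and 3.21% held a TCF/LEF motif (CTTTGAT), which was in none of the windows printed. The windows of Cd38, Lama5, Ptgs2 and Agt held none of these motifs. These matches of letters are a description and no binding was measured.

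The Nrg1-gated barcodes carried other EGF family ligands beside Nrg1. Of the 10 other ligands listed, 3 were measured against the other kept barcodes and 2 were called higher. Ereg, epiregulin, a ligand of EGFR and ERBB4, stood at 1116 CPM in ff and 1886 in GF against 389 and 313 (log2 1.52 and 2.59). Areg, amphiregulin, stood at 69.2 and 106 CPM against 31.5 and 24.2 (1.11 and 2.09). Hbegf, the third measured ligand, stood at 54.6 and 32.5 CPM against 70.2 and 46.8. Nrg2 missed the level filter, at 20.8 and 20.9 CPM against 6.41 and 4.03, while Nrg3 had 0 UMIs in the gated barcodes and Nrg4 had 1 UMI in ff and 0 in GF. Btc, betacellulin, followed the other population, at 4.51 and 12.9 CPM in the Nrg1-gated and 38.3 and 35.1 in the Wif1/Bmp3-gated barcodes.

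Receptors for neuregulin 1 were hardly seen in the gated barcodes themselves. Erbb3 had 3 UMIs in ff and 0 in GF, and Erbb4 had 1 and 0. Erbb2, the shared partner, stood at 11.99 and 12.5 CPM, near the 10.3 and 8.91 of the other kept barcodes, and Egfr at 85.2 and 77.0 against 101 and 73.5. Of 6 measured receptors and feedback inhibitors of the EGF pathway, Spry1 was called higher, at 190 and 344 CPM against 87.9 and 96.9 (1.10 and 1.82). Spry4, a related inhibitor of MAP kinase signalling, came to 0.94 in ff and 2.02 in GF and missed the 2-fold line in ff.

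Most markers of Foxl1-high subepithelial cells, BMP ligands and Wnt5a among them, were higher than in the other kept barcodes and not higher than in the Wif1/Bmp3-gated barcodes. Of the 12 markers listed for Foxl1-high subepithelial cells, 8 were measured and 7 were called higher than in the other kept barcodes, with medians over the 8 of 1.49 in ff and 2.30 in GF. They were F3, Wnt5a, Bmp5, Bmp2, Cxcl14, Procr and Fgf9. Pdgfra, the marker not called, stood at 948 and 1132 CPM against 490 and 410 (0.95 and 1.46). Bmp2 stood at 1008 and 1467 CPM against 234 and 179 (2.11 and 3.03), and Bmp5 at 822 and 687 CPM against 294 and 119 (1.48 and 2.52). Wnt5a, a non-canonical WNT ligand, stood at 374 and 448 CPM against 103 and 82.2 (1.85 and 2.43), and Fgf9 at 96.0 and 207 CPM against 33.6 and 28.9 (1.49 and 2.80). Against the Wif1/Bmp3-gated barcodes none of the 9 measured markers was called higher, and Procr and Edn3 were called lower. The list's medians in that comparison were -0.50 in ff and -0.54 in GF, beside -0.08 in each library over all 5937 genes measured in it.

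Pathway inhibitors were divided. Fst, follistatin, which binds activins, stood at 43.8 CPM in ff and 483 in GF against 13.3 and 45.2 (1.65 and 3.39). Twsg1, a BMP-binding protein, was higher as well, at 1.31 and 1.64. Grem1, a BMP antagonist, was lower at 22.0 and 14.2 CPM against 203 and 97.2 (-3.15 and -2.69). Sfrp1, Sfrp2 and Sfrp4, secreted inhibitors of WNT ligands and 3 of the 4 measured ones, were lower, Sfrp1 at 126 and 131 CPM against 444 and 483 (-1.80 and -1.87). Ptch1, a hedgehog receptor and target, was higher at 1.36 and 1.67, and Gas1, a hedgehog co-receptor, was lower at 8.90 and 5.78 CPM against 87.0 and 84.5 (-3.15 and -3.66). Of the genes named here, Fst alone was called against the Wif1/Bmp3-gated barcodes, higher at 2.46 and 1.97. Sfrp1 (0.66 and 0.61) and Ptch1 (0.38 and 0.22) were measured there and not called, and Gas1 missed the level filter.

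Both cyclooxygenase genes were higher in the gated than in the other kept barcodes, while most measured genes of prostaglandin metabolism were not called. Ptgs2, cyclooxygenase-2, reached 2408 CPM in the gated ff and 2655 in the gated GF barcodes, against 668 and 514 in the other kept (1.85 and 2.37) and 400 and 430 in the Wif1/Bmp3-gated barcodes (2.59 and 2.62). Ptgs1, cyclooxygenase-1, stood at 384 and 362 CPM against 101 and 96.5 in the other kept barcodes (1.92 and 1.90). The prostaglandin exporter Abcc4 was also higher, at 2.47 and 2.23. Ptgis, prostacyclin synthase, was lower at 33.4 and 17.8 CPM against 102 and 67.4 (-1.59 and -1.86), and further below the 226 and 105 CPM of the Wif1/Bmp3-gated barcodes. In all, 8 genes of the 19 listed were measured against the other kept barcodes, 3 of them called higher and 1 lower, with medians of 0.41 and 0.37. Against the Wif1/Bmp3-gated barcodes 9 were measured, with Ptgs2 alone called higher and Ptgis alone lower, at medians of 0.06 and -0.05. Ptgs1 and Abcc4 were thus not called in that comparison. Ptgs2 is also inducible by stress, and the part of tissue dissociation in its level was not tested. Of 21 measured genes of the dissociation and immediate early response, Nr4a2 was called higher, at 1.24 and 1.29, and the list's medians were -0.15 in ff and 0.24 in GF.

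Single genes of several growth factor lists were higher than in the other kept barcodes. Ntf3, neurotrophin-3, stood at 91.1 and 91.2 CPM against 17.2 and 15.6 (2.34 and 2.48), and Dll1, a Notch ligand, at 95.7 and 81.0 CPM against 28.1 and 26.9 (1.73 and 1.55). Vegfa stood at 182 and 177 CPM against 66.9 and 54.3 (1.43 and 1.68), and Tgfbi, a matrix protein induced by TGF-beta, at 548 and 344 CPM against 133 and 48.1 (2.03 and 2.81). They were 1 of 2 measured neurotrophic factors, 1 of 3 Notch genes, 1 of 16 PDGF and vascular growth factor genes, of which Igfbp4 was lower, and 1 of 2 higher genes, with Id1, among 20 of TGF-beta signalling. In that last list Tgfb3, Tgfbr3, Ltbp4, Ccn2 and Ccn3 were lower. Among 17 measured transcription factors of mesenchyme, Tbx3, Runx1 and Runx2 were called higher and Foxp2 lower, Runx1 at 427 and 440 CPM against 153 and 87.9 (1.47 and 2.31).

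Adventitial fibroblast markers were lower in the Nrg1-gated than in the other kept barcodes, and the lists of complement, chemokine and cytokine genes had more members called lower than higher. Pi16, Cd81, Grem1, Ackr4, C3 and Cd34 were measured among 8 adventitial markers, and each was called lower, with medians of -2.93 and -2.88. Among the 8 measured complement genes, those called lower included C3, C4b, Cfb and Cd55, C3 at 132 and 160 CPM against 997 and 1451 (-2.91 and -3.17). The chemokines Ccl2, Ccl7 and Ccl11 and the scavenging receptor Ackr4 were lower among 13 measured chemokine genes, and Cxcl14 was higher. Il6 and the alarmin Il33 were lower, at -1.96 and -1.86 for Il6 and -2.85 and -3.77 for Il33, and Il34 was higher, at 1.31 and 1.40, with 4 lower and 1 higher of 14 measured cytokine genes. Cxcl12 was not called, at 728 and 785 CPM against 1016 and 1004. The low levels in these lists did not set the Nrg1-gated apart from the Wif1/Bmp3-gated barcodes. In that comparison 4 adventitial, 7 complement, 11 chemokine and 12 cytokine genes were measured. None was called lower, and Ackr3 alone was called higher. The lowest ratios among the ranked genes were those of Cd74 (-4.54 and -3.62) and H2-Aa (-4.09 and -3.59), which serve MHC class II presentation, and the gate left out barcodes with a UMI of Ptprc, the gene of the leukocyte antigen CD45. Inmt, Pcolce2, Pi15, Ebf1, Flrt2 and Rgs5 were also among the 12 lowest, Rgs5 at -2.52 and -3.63, as was Ptx3 at -1.89 and -4.41.

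**Figure D3:**
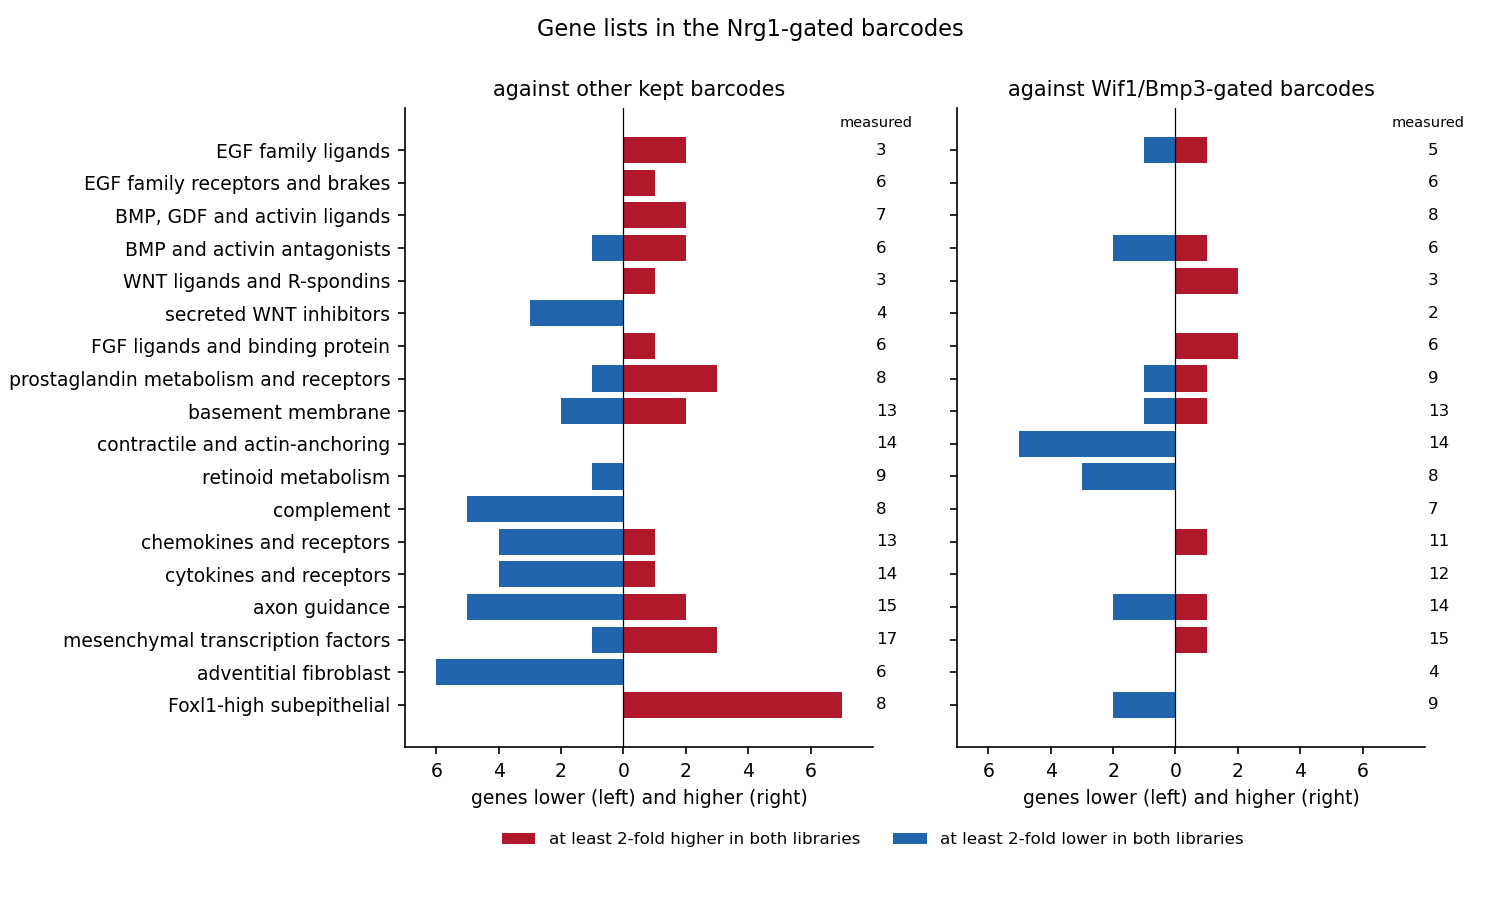
For 18 gene lists, bars give the number of genes at least 2-fold higher (red, to the right) or lower (blue, to the left) in both libraries in the Nrg1-gated barcodes, against the other kept (left panel) and the Wif1/Bmp3-gated barcodes (right panel), with the number of measured genes at the right edge. The Foxl1-high marker list has 7 of 8 genes higher on the left and none higher on the right, and contractile genes have 0 of 14 called on the left and 5 of 14 lower on the right.

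Against the Wif1/Bmp3-gated barcodes, their nearest population, 101 of 5937 measured genes (1.70%) were higher in both libraries and 91 (1.53%) were lower. After Ptprr, the largest mean ratio was that of Lef1, a transcription factor of canonical WNT signalling, at 67.7 and 46.3 CPM against 2.33 and 3.86 (log2 4.37 and 3.28). Piezo2 followed at 72.5 and 51.6 CPM against 5.68 and 4.05 (3.46 and 3.38), then the cadherin Cdh13 at 155 and 115 against 13.8 and 11.0 (3.40 and 3.27) and Lama5 at 3.53 and 3.07. Fgf7, keratinocyte growth factor, stood at 114 and 51.6 CPM against 11.1 and 11.0 (3.25 and 2.13). Wnt4 stood at 376 and 444 CPM against 140 and 192 (1.42 and 1.20), and Wnt5b at 1.32 and 1.37, making 2 of 3 measured WNT ligands higher. The netrin receptor Unc5b was higher at 3.16 and 2.76. Hcar2, a receptor for hydroxybutyrate and nicotinic acid, was higher at 2.42 and 3.04, and Cd109 at 3.21 and 3.35. The inhibitory Smads, Smad6 and Smad7, were higher at 1.49 and 1.51 and at 1.55 and 1.84.

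Contractile genes were lower than in the Wif1/Bmp3-gated barcodes. Acta2, Tagln, Myl9, Mylk and Pdlim3 were called lower among 14 measured, with list medians of -1.001 and -0.82. Tagln stood at 199 and 217 CPM against 1325 and 1085 (-2.73 and -2.32), and Acta2 at 285 and 387 against 1273 and 1094 (-2.15 and -1.50). Genes of retinoid metabolism were lower in 3 of 8 measured cases, Aldh1a1, Aldh1a2 and Rbp4, the first at 210 and 197 CPM against 529 and 415 (-1.33 and -1.07). The lowest ratios belonged to Masp1, a lectin-pathway protease (-3.50 and -2.96), and Itm2a (-3.20 and -2.35). Abcc9, a subunit of potassium channels, stood at -2.84 and -2.61, the sodium channel Scn7a at -3.38 and -1.92 and Edn3, a ligand of endothelin receptor B, at -2.80 and -2.09. Chrd and Nbl1, both BMP antagonists, were also lower, Chrd at 8.07 and 10.2 CPM against 35.8 and 49.8 (-2.02 and -2.18). Kcnj8, Abcc9 and Cspg4, all 3 measured genes of the pericyte list, were lower. Notch3 and Higd1b of that list had 0 UMIs in GF in both gated groups, and none of its 7 genes was at 0 in ff in either.

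Markers of glia, epithelium and lymphocytes were low in the gated barcodes, whereas some of other mesenchymal cell types were not. The 7 enteric glia markers summed to 1.31 CPM in ff and 0.8899 in GF, against 2.70 and 4.46 in the other kept barcodes. Sox10, S100b, Gfap, Cdh19 and Foxd3 were at 0 in both gated groups. The 8 epithelial markers summed to 6.06 and 6.23 CPM, with Cdh1 at 0 in both, against 22.3 and 4.40 in the other kept barcodes. Their sum was thus not below that of the other kept barcodes in GF. The 9 lymphocyte markers summed to 5.46 and 16.9 CPM against 239 and 265. The 6 markers of interstitial cells of Cajal summed to 730 and 924 CPM against 323 and 281 in the other kept barcodes, through Gja1, Etv1 and Ano1, while Kit, the defining gene of those cells, was at 0 in both libraries. The 7 lamina propria fibroblast markers summed to 5183 and 7527 CPM against 2897 and 3870, with Tbx3 and Prdm1 called higher and Ccl11 lower of 6 measured. The 8 smooth muscle markers summed to 205 and 307 CPM against 309.5 and 404, yet at least 2 of their UMIs were seen in 50.7% and 53.1% of the gated, deeper barcodes, against 36.2% and 29.4% of the other kept and 47.0% and 55.4% of the Wif1/Bmp3-gated barcodes. The part of these cell types in the results was not tested. Haemoglobin genes were called higher, and 3 ff and 1 GF gated barcodes with at least 100 haemoglobin UMIs held 6911 and 1561 of these. Without all barcodes of at least 2 haemoglobin UMIs, 664 ff and 257 GF barcodes remained and 150 of the 154 genes were still called higher.

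Spread among the gated barcodes was larger than counting error for a small set of genes. After thinning to 3000 UMIs, which left 665 ff and 256 GF barcodes, the variance of a gene's UMIs over its mean (Fano factor) had a median of 1.06 in each library over 3914 genes. Beside haemoglobins and the nuclear RNA Malat1, the 12 highest by mean included Gsn (16.3 and 22.9), Dcn (13.0 and 16.0), Adamdec1 (8.70 and 14.2), Tagln (8.72 and 11.1), Myh11 (4.60 and 22.6), Acta2 (10.5 and 7.24) and Fos (8.65 and 11.2).

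Clustering of the gated barcodes alone, both libraries together, gave 7 subclusters, which are given by number and leading genes, with no name and no test. Subclusters 1, 3 and 4, led by Rgs1, Lama5 and Fgf7, by Mt3, Ch25h and Procr, and by Tagln, Myh11 and Actg2, held 374 ff (56.0%) and 140 GF barcodes (54.3%). Subclusters 2 and 5, led by Cd36, Col6a5 and Igfbp3 and by Stmn2, Apoe and Spock3, held 205 (30.7%) and 85 (32.9%). The remaining 89 and 33 lay in subclusters 6 (Mgp, Eln and Grem1) and 7 (Pcolce2, Ebf1 and Pi16). For subclusters 1, 3 and 4 the share in each library lay within the interval of the other (52.1% to 59.8% in ff and 48.0% to 60.5% in GF). Genes had been scaled within each library before clustering, so these shares cannot show that the libraries were alike in make-up.

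The Foxl1-high pattern was strongest in subclusters 1, 3 and 4 and weakest in 2 and 5. Foxl1 stood there at 74.6 CPM in ff and 63.1 in GF, against 8.71 and 12.1 in subclusters 2 and 5, below or near the 11.7 and 13.4 of the other kept barcodes. Pdgfra stood at 1365 and 1655 CPM against 448 and 405, Wnt5a at 618 and 703 against 66.5 and 93.6, and Ednrb at 612 and 824 against 19.4 and 24.2. Fgf9 stood at 160 and 354 CPM against 2.77 and 18.1, and Fst at 70.8 and 753 against 0 and 1.51. Ptprr was at 118 and 185 CPM against 14.3 and 12.1, and Glp2r at 103 and 172 against 7.13 and 37.8. Subclusters 6 and 7 lay between for Foxl1 (17.5 and 24.8 CPM), Ednrb (165 and 290.3), Fgf9 (76.4 and 110.3) and Fst (42.6 and 509), although the highest GF level of Fst, 1239 CPM, was that of the 8 barcodes of subcluster 7. Subclusters 2 and 5 carried Cd36 at 352 and 64.9 CPM against 2.87 and 3.51, and Apoe at 970 and 2036 against 42.8 and 153. The 205 ff and 85 GF barcodes of subclusters 2 and 5 thus had Nrg1 (520 and 628 CPM) without the levels of Foxl1, Pdgfra, Wnt5a, Fgf9 and Ednrb that mark Foxl1-high subepithelial cells.

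Some genes did not follow that division. Prdm1 was at 178 and 308 CPM in subclusters 1, 3 and 4 and at 174 and 171 in 2 and 5, Tbx3 at 189 and 317 and at 171 and 228, and Ptgs2 at 2505 and 3263 and at 2639 and 2145. Both sets were above the 23.5 and 15.1 CPM of Prdm1 in the other kept barcodes. The subclusters still differed, with Prdm1 at 233 and 307 CPM in subcluster 1 and 58.9 and 112 in 4, and Tbx3 at 267 and 457 and at 79.6 and 96.2. Within the first set, Ptprr was highest in subcluster 1 (187 and 300 CPM) and lowest in 4 (26.3 and 72.1), and Lama5 followed it (191 and 134 against 24.7 and 32.1). Sox6 ran the other way, at 46.2 and 53.1 CPM in subcluster 1, 142 and 162 in 3, and 228 and 361 in 4, as did Tagln (12.2 and 25.4, 170 and 297, 1000 and 932). Nrg1 itself was at 1113 and 1847 CPM in subcluster 1, 903 and 1533 in 3, and 511 and 550 in 4. Agt, the gate gene seen most in ff, was at 641 and 605 CPM in subcluster 1 and 177 and 136 in 4.

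**Figure D4:**
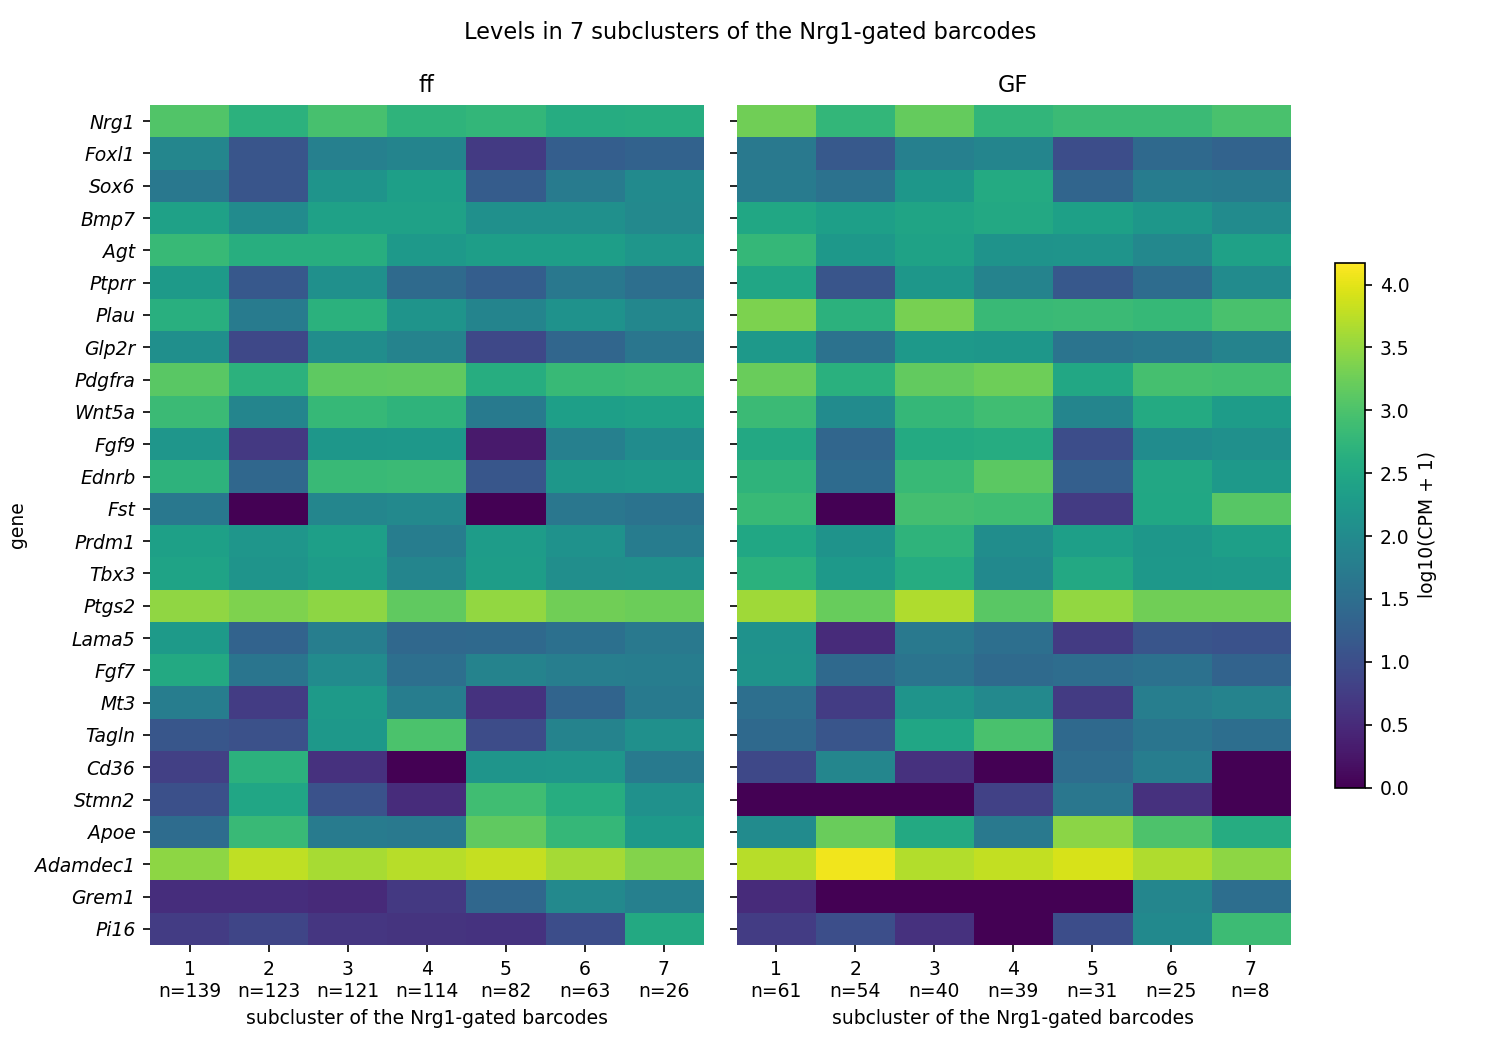
Summed level, as log10(CPM + 1), of 26 genes (rows) in the 7 subclusters of the Nrg1-gated barcodes (columns, with the number of barcodes), ff at left and GF at right. Subclusters 2 and 5 are dark for Foxl1, Glp2r, Fgf9, Ednrb and Fst and bright for Apoe in both libraries, whereas Prdm1, Tbx3 and Ptgs2 are not dark there, and are lower in subcluster 4 than in 1.

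Subclusters 6 and 7 held most of the doublet marks, 53 of 55 in ff and 12 of 13 in GF. Their median depth was 19368 UMIs in ff and 13024 in GF, against 10757 and 7734 in subclusters 1, 3 and 4, and Pi16, an adventitial gene, reached 347 and 717 CPM in subcluster 7. Their part in the results was not tested beyond leaving them out. Without them, 182 genes were higher and 207 lower than in the other kept barcodes, with 154 of the 154 and 163 of the 170 genes shared. With subclusters 1, 3 and 4 alone, 265 genes were higher and 277 lower, including 152 of the 154 and 158 of the 170.

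The gated GF and ff barcodes were compared last, with the limit that strain, label and library coincide. Of 6263 measured genes, 99 (1.58%) were at least 2-fold higher in GF and 111 (1.77%) at least 2-fold lower, with a median log2 ratio of 0.09 over all of them. Scaled by the median of ratios instead of total UMIs, the split was 74 higher and 132 lower. The other kept barcodes come from the same libraries, so their values are set beside those of the gated barcodes and not compared with them as independent results. In them, 94 of the 99 genes also had a higher GF value and 103 of the 111 a lower one. The difference was at least 2-fold there for 31 and 36 genes. The gated barcodes were at a median of 11624.5 UMIs in ff and 7969 in GF.

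Nrg1 had 665 CPM in the gated ff and 1010 in the gated GF barcodes, a gene the gate used. Plau was higher in GF by a log2 ratio of 2.38 (interval 2.30 to 2.48), and by 2.17 in the other kept barcodes. Glp2r differed by 0.87 (0.66 to 1.11) and Ptprr by 0.56 (0.35 to 0.79), both short of 2-fold, and the other kept barcodes gave 0.05 and -0.36. Fgf9 was higher at 96.0 CPM in ff and 207 in GF (1.10). Fst was higher at 43.8 and 483 CPM (3.43), against 13.3 and 45.2 in the other kept barcodes (1.69) and 7.16 and 123 in the Wif1/Bmp3-gated barcodes, and in subclusters 1, 3 and 4 at 70.8 and 753 CPM (3.39). Dsp, the desmosomal protein desmoplakin, stood at 2.61 and 51.2 CPM (3.85), against 0.929 and 3.31 in the other kept barcodes (1.16), and went from 0 to 19.9 CPM in the Wif1/Bmp3-gated barcodes. The higher GF level of both genes was thus seen in the Wif1/Bmp3-gated barcodes too.

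The largest ratio was that of Fgfbp1, a secreted carrier of FGFs, at 0.594 CPM in ff and 222 in GF (7.13). It was at 0.218 and 49.7 CPM in the other kept barcodes and at 0.837 and 643 in the Wif1/Bmp3-gated barcodes, so that ff was near 0 in each group. C1s2, C1rb, Tpm3-rs7 and Gbp2b showed ratios of like size in gated and other kept barcodes, C1s2 at 6.05 and 6.30 and Tpm3-rs7 at 5.84 and 5.74. These are close copies of other genes, and how reads were divided between copies is not known here. Gbp2b had 0 UMIs in the gated ff and 97 in the gated GF barcodes, which is at least 121-fold higher when the floor is set at 3 counts over the ff group. Ralgps2 was higher at 3.32 and 116 CPM (4.75), Rbm46 at 3.80 and 40.5 (3.11) and Nr1d1, a repressor of the circadian clock, at 4.75 and 39.6 (2.82). All were higher in GF in the other kept barcodes too, at 3.19 for Ralgps2, 2.53 for Rbm46 and 2.68 for Nr1d1.

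On the lower side, Stmn2, a regulator of microtubules, stood at 214 CPM in ff and 5.78 in GF (-4.99), and at 270 and 12.5 in the other kept barcodes (-4.33). In subclusters 1, 3 and 4 it was at 7.65 and 1.75 CPM, and in ff it was highest in subclusters 5 (780.3 CPM), 6 (392) and 2 (299.97). Casq2, calsequestrin-2, a calcium store protein, stood at 138 and 11.1 CPM (-3.52), against 32.5 and 12.9 in the other kept barcodes (-1.26). In the Wif1/Bmp3-gated barcodes it was at 155 CPM in ff and 165 in GF. The low GF level was thus seen in the Nrg1-gated and not in the Wif1/Bmp3-gated barcodes. The latter held 1668 of the 3571 Casq2 UMIs of the other kept barcodes in ff and 858 of 1303 in GF. The ratio of -1.26 includes them. Outside the Wif1/Bmp3 gate, the rest of the other kept barcodes also had a lower Casq2 level in GF than in ff. Col4a6, a basement membrane collagen chain, stood at 88.5 and 16.0 CPM (-2.39), against 33.9 and 3.20 (-3.05). S100a4 stood at 318 and 49.4 CPM (-2.66) and Serpina3n at 108 and 20.02 (-2.37), with -1.19 and -0.42 in the other kept barcodes. Pcdh9 stood at 70.6 and 3.11 CPM (-4.12) and Mpp7 at 60.8 and 2.67 (-4.07), with -2.91 and -3.16 in the other kept barcodes. Pttg1 and Gstp1 had ratios of -2.93 and -2.35 in the gated and -2.63 and -2.26 in the other kept barcodes.

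**Figure D5:**
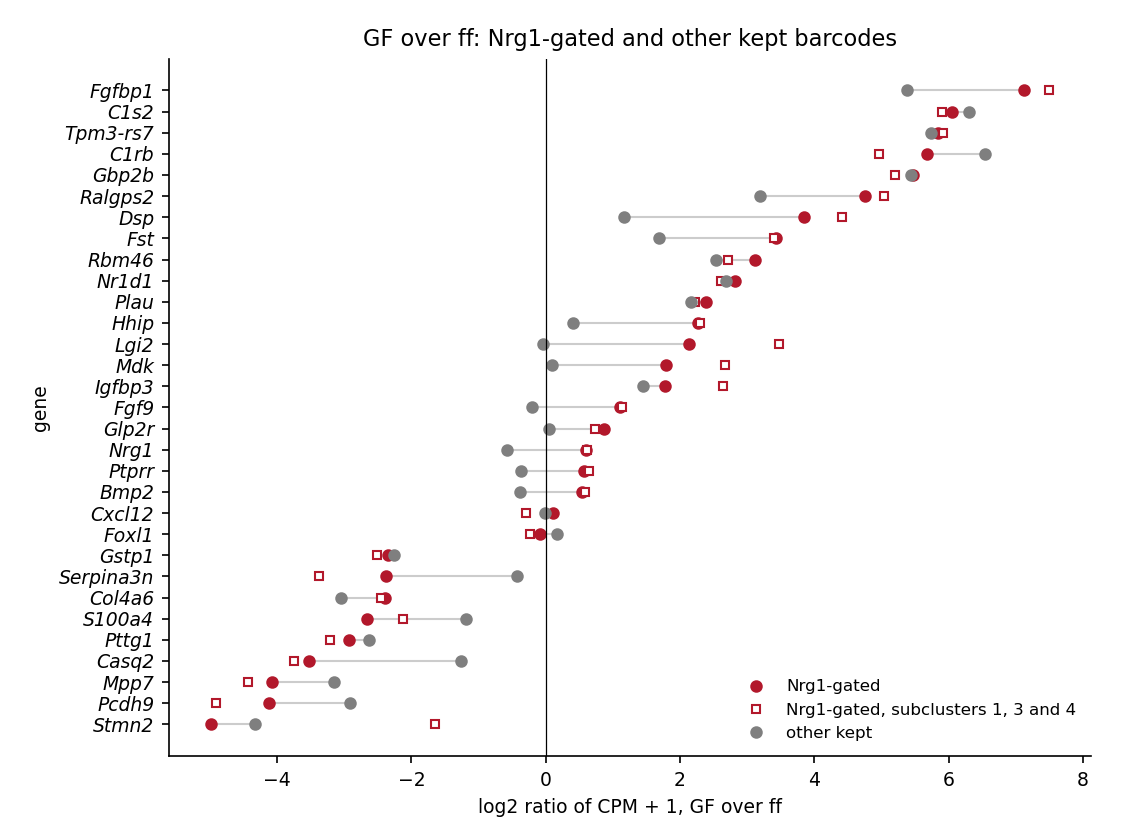
Log2 ratio of CPM + 1, GF over ff (x axis), for 31 genes (y axis) in the Nrg1-gated barcodes (filled red), in their subclusters 1, 3 and 4 (open red squares) and in the other kept barcodes (grey). Grey and red points nearly coincide for Tpm3-rs7, Gbp2b and Gstp1. They lie apart for Fst (3.43 against 1.69), Dsp (3.85 against 1.16) and Casq2 (-3.52 against -1.26). The Wif1/Bmp3-gated barcodes, where Fst and Dsp were also higher in GF, are part of the grey group and are not drawn by themselves. They held 858 of the 1303 grey Casq2 UMIs in GF and 1668 of 3571 in ff. The rest of the grey group also had a lower Casq2 level in GF than in ff.

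Among the lists, chemokine genes had the most called members between the libraries, 7 of 12 measured. Ccl11 stood at 58.3 and 133 CPM (1.17) and Cxcl13 at 47.5 and 260 (2.43), both higher in GF. Ccl2, Ccl7, Ccl8, Cxcl2 and Cxcl10 were lower, Ccl2 at 110 and 48.1 CPM (-1.17). Cxcl13 was also higher in GF in the other kept (74.8 and 226 CPM) and Wif1/Bmp3-gated barcodes (74.6 and 220). Its highest GF subcluster level was 640 CPM, in subcluster 6. For the other chemokines, GF and ff levels outside the gate are not given here. Of 7 measured FGF genes, Fgf9 and Fgfbp1 were higher and Fgf7 lower, at 114 and 51.6 CPM (-1.13). Spry4 was the 1 of 6 measured EGF receptor and feedback genes past 2-fold, at 112 and 237 CPM (1.07). The Bmp2 level was 1008 and 1467 CPM (0.54) and that of Bmp4 845 and 896 (0.09), with neither past 2-fold. None of 15 measured genes of glycolysis, 15 of cholesterol synthesis or 21 of the immediate early response passed 2-fold between the libraries, near the 1.58% and 1.77% of all measured genes, at which few or no calls fall in lists of this size.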

How the data were processed

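Both libraries of sorted colon stroma (10x Genomics 3' v3.1 chemistry, per the labels) were used. Per the submitters' processing notes, Cell Ranger 6.0.0 and mm10 were used. The sources used here do not give the annotation release. The tables deposited by the authors hold raw UMI counts per Ensembl gene and barcode, with no normalization, and no deposited barcode had fewer than 500 UMIs. The ff table had 13704 barcodes with 119866589 UMIs and the GF library 16388 barcodes with 105331294.

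Symbols were matched by Ensembl identifier. The gate, the members and the gene lists were chosen with earlier results of these data known. Counts were summed over barcodes, scaled to 1000000 and compared as log2(CPM + 1), with a mean CPM of at least 20 and a 2-fold line. With 1 library per group there was no test. Exact intervals (Clopper-Pearson for shares, Poisson for levels, conditional binomial for ratios, 95%) cover counting error alone. Lymphocyte barcodes had at least 5 lymphocyte marker UMIs and under 0.2% of UMIs from fibrillar collagens. Doublets were marked with Scrublet in scanpy 1.11.5. Gated barcodes were clustered on 1000 variable genes, scaled within each library, with 15 principal components and 15 neighbours. Clusters came from leidenalg 0.10.2 at resolution 0.6, and leading genes were ranked with a pseudocount of 10. Python 3.11.15, numpy 2.4.6 and scipy 1.17.1 were used, and the ratio and calling steps were tested on simulated data.

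Named genes were the 15 highest and 12 lowest mean ratios against the other kept barcodes, 12 and 12 against the Wif1/Bmp3-gated barcodes, and 10 and 10 between libraries, with at least 50 UMIs in the higher group. Left out of the ranking were the gate's genes, genes of mitochondria, ribosomes, antibodies, haemoglobin and sex, and gene models without a name. A few genes that these rules or lists name are not reported here. The markers, the gate's genes and up to 4 genes per list stand beside them. Other list members, and the genes described within the subclusters, were chosen after their values were seen. Alternatives covered filters, doublets, the gate, depth, scaling, pseudocount and the level filter.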

Additional observations from a re-analysis of the deposited data

How the results depend on the processing

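None of the values recomputed, which were the ratios of the named genes, the counts of genes past 2-fold and the share of gated barcodes, changed direction. Shares of barcodes with a UMI, subcluster levels and Fano factors were not recomputed. Of 1305 values of 71 named genes under 19 settings, 964 kept within their counting interval and 341 moved. The share of gated barcodes depended on the gate. It was 1.97% in GF with at least 2000 UMIs and at most 5% mitochondrial UMIs, 7.12% and 2.40% (ff and GF) from 2 Nrg1 UMIs on, and 3.35% and 1.02% from 5 on. After thinning to 2000 UMIs, with at least 1 Nrg1 UMI asked for, it was 3.56% in ff. With settings chosen after seeing the data it was 2.98% and 0.876% when Foxl1 or Sox6 was required, 3.65% and 1.06% without barcodes holding other lineages' markers (the interstitial cell of Cajal list aside), 2.94% and 0.929% for subclusters 1, 3 and 4, and 4.56% and 1.49% without subclusters 6 and 7. The ff share was above the GF share in each.

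Counts of genes past 2-fold depended on the level filter. Against the other kept barcodes, 235 were higher and 334 lower from 5 CPM on, 87 and 107 from 50 CPM on, and 318 and 644 with no filter. Against the Wif1/Bmp3-gated barcodes these were 185 and 155, 58 and 50, and 280 and 240. Between GF and ff they were 272 and 259, 44 and 61, and 592 and 658. A pseudocount of 10 left 59 genes higher in GF. Leaving out other lineages' markers gave 200 genes higher in GF. Subclusters 1, 3 and 4 alone gave 265 higher and 277 lower than the other kept barcodes and 162 higher in GF. Fewer or more genes enter under another filter, and the cause of the remaining moves was not tested.

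The planned gate without any other lineage's markers, that of interstitial cells of Cajal included, left 11 ff and 4 GF barcodes and was not run. No paired analysis was possible because each group has 1 library and the labels give no replicate numbers, and leaving out a library would leave none in its group. The depth of the gated GF barcodes, 2247394 UMIs in sum, limits what can be said of low genes there.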
